A study of Mus musculus with 3 samples.

Results

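The regions described here are the small RNA gene rows of a poly-A RNA-seq table from mouse cortical neurons. A small RNA row is a transcript row whose gene is typed miRNA, snoRNA, snRNA, scaRNA or misc_RNA in the GENCODE mouse annotation. Of 84660 transcript rows, 1458 had such a type, 4 of them lay elsewhere in the annotation used and were left out, and 1454 were kept. They comprised 651 miRNA, 385 snoRNA, 254 snRNA, 24 scaRNA and 140 misc_RNA rows. The 5 types hold 5705 genes in that annotation, so most annotated small RNA genes had no row in the table.

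The data were 3 libraries of 1 group: wild-type cortical neurons of E16 Swiss-Webster mice, an outbred stock, dissociated and cultured in neurobasal medium with B27. The libraries are titled Control, their labels give no treatment, and they were taken as untreated. The protocol text also describes etoposide, a TOP2 poison, and no second group was analysed here. Poly-A RNA was purified before strand-specific cDNA synthesis. The labels do not say whether the libraries came from separate cultures or litters, or how many embryos were pooled, so SDs and p-values describe only how these libraries vary among themselves, and that variation may be technical. The neuronal markers Tubb3 and Map2 stood at 234 ± 30.0 and 135 ± 1.59 TPM (SD, n = 3), Cldn5 of endothelial cells was listed at 0 and Cx3cr1 of microglia at 0.0381 TPM. The astrocyte marker Slc1a3 stood at 133 and Gfap at 16.6 TPM, and Olig1 of the oligodendrocyte lineage at 34.4 TPM, so the cultures also held RNA of glial genes. In bulk RNA a low level from few cells and a low level per cell cannot be told apart.

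As background, most animal miRNAs are cut from longer polymerase II transcripts, first to a hairpin in the nucleus and then to a short mature strand that guides Argonaute to target RNAs. Most vertebrate snoRNAs are trimmed from spliced introns of a host gene and guide the modification of ribosomal RNA, and scaRNAs do the same for the snRNAs of the spliceosome. The finished forms of these RNAs, and the polymerase III products among misc_RNA and snRNA genes, mostly lack a poly-A tail. A read on one of these rows therefore need not come from the mature small RNA: host messages, unspliced host RNA and polyadenylated precursors cover the same bases.

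The sequences that the results turn on are shown first. They were read from GENCODE transcripts of the same genome build as the file (mm10), with coordinates counted from base 1. The first pair is a snoRNA row of the imprinted long non-coding RNA Rian, Gm24895 at chr12:109646129-109646202 (plus strand), and a copy that lies in no gene, Gm24598 at chrX:64496584-64496657 (plus strand). Over 74 bases they differ by 2 substitutions, C1T and G24A, counted from the 5′ end with the base of Gm24895 first. Capitals mark these bases.
Gm24895: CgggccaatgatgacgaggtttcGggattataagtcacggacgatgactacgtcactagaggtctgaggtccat
Gm24598: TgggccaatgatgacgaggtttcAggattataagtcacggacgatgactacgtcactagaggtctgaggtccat

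The next set shows C/D-type snoRNA rows from an exon, from an intron and from outside genes. Gm22357 lies in an exon of Gas5 at chr1:161036057-161036139 (plus strand), Snord59a in an intron of Atp5b at chr10:128084143-128084216 (plus strand), and Snord104 between genes at chr11:106500993-106501062 (plus strand). Capitals mark the letters searched for, TGATGA (a C box) and CTGA (a D box).
Gm22357: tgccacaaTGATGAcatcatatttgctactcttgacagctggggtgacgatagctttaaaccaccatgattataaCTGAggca
Snord59a: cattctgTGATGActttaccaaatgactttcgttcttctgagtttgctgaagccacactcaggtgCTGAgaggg
Snord104: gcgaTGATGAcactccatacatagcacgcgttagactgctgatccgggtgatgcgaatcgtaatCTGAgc

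Some miRNA rows fill a whole intron. Mir7070 in Fbxw9 at chr8:85062086-85062171 (plus strand) and Mir877 in Abcf1 at chr17:35960730-35960814 (minus strand) are shown with the first and last letters of the intron in capitals.
Mir7070: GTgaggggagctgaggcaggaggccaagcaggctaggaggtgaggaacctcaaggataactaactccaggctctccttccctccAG
Mir877: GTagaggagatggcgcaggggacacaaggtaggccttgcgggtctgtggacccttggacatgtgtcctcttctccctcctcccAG

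A further kind of row recurs in the results. The misc_RNA rows with the highest levels are annotated stretches of long non-coding RNAs, here Gm27694 of Malat1 at chr19:5799000-5799085 (minus strand) and Gm27733 of Xist at chrX:103461218-103461285 (minus strand), printed in lower case because no part of them was singled out.
Gm27694: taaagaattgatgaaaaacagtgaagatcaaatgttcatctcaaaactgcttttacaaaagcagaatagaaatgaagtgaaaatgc
Gm27733: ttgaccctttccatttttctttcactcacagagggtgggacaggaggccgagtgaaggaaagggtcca

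For the miRNA rows with neuronal names, the mature strands come from RefSeq (GRCm38.p6), with the seed, bases 2 to 8, in capitals. RefSeq entries were matched for 464 of the 651 miRNA rows. Mir9-2 and Mir9-3 share both mature strands, and Mir29b-2 and Mir29c share the seed AGCACCA.
miR-9-5p: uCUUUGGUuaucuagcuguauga
miR-9-3p: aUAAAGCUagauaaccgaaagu
miR-29b-3p: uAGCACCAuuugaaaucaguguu
miR-29c-3p: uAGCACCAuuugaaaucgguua
miR-22-3p: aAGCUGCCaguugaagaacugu
let-7b-5p: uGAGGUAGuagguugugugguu

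Few small RNA rows reached the level set for detection, although most had at least 1 read in a library. Levels are in TPM, which scales the reads of a row by its length and then to the library's total, and a row was called detected at a mean of at least 1 TPM. By this rule 324 of 1454 small RNA rows were detected, 22.3%, against 62.4% of all rows of the table and 70.6% of the rows of protein-coding genes. In all, 472 rows (32.5%) were listed at 0 in all 3 libraries, 69 rows reached 10 TPM and 12 reached 100 TPM. Because TPM times row length was a whole multiple of a single number per library, reads could be recovered, and 168 rows had at least 10 reads in each library. On a row of 80 bases, 1 read was worth 0.244, 0.289 and 0.274 TPM in libraries 1, 2 and 3, and 3 reads 0.732, 0.867 and 0.821 TPM. The detection limit thus lay at a few reads on such a row: Gm27953 of Lhx6, with a mean of 0.991 TPM, had 8, 5 and 7 reads and lay just below it, and Snord4a of Rpl23a, with 1.01 TPM, had 3, 2 and 5 reads and lay just above. Together the small RNA rows held 1.02%, 0.955% and 1.06% of the TPM in libraries 1, 2 and 3.

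Position relative to other genes separated the rows. A row was placed by the other annotated genes it overlapped: 486 rows overlapped an exon of a gene on the same strand (exonic), 617 lay within such a gene but in no exon (intronic), 99 lay only in a gene of the opposite strand, and 252 were intergenic. Of the exonic rows 252 were detected (51.9%), of the intronic rows 60 (9.72%), of the opposite-strand rows 4 (4.04%) and of the intergenic rows 8 (3.17%). The share listed at 0 in all libraries ran the other way, from 9.47% of exonic to 34.2% of intronic, 58.6% of opposite-strand and 62.3% of intergenic rows. Rows within a same-strand gene, its host, accounted for 312 of the 324 detected rows.

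**Figure D1:**
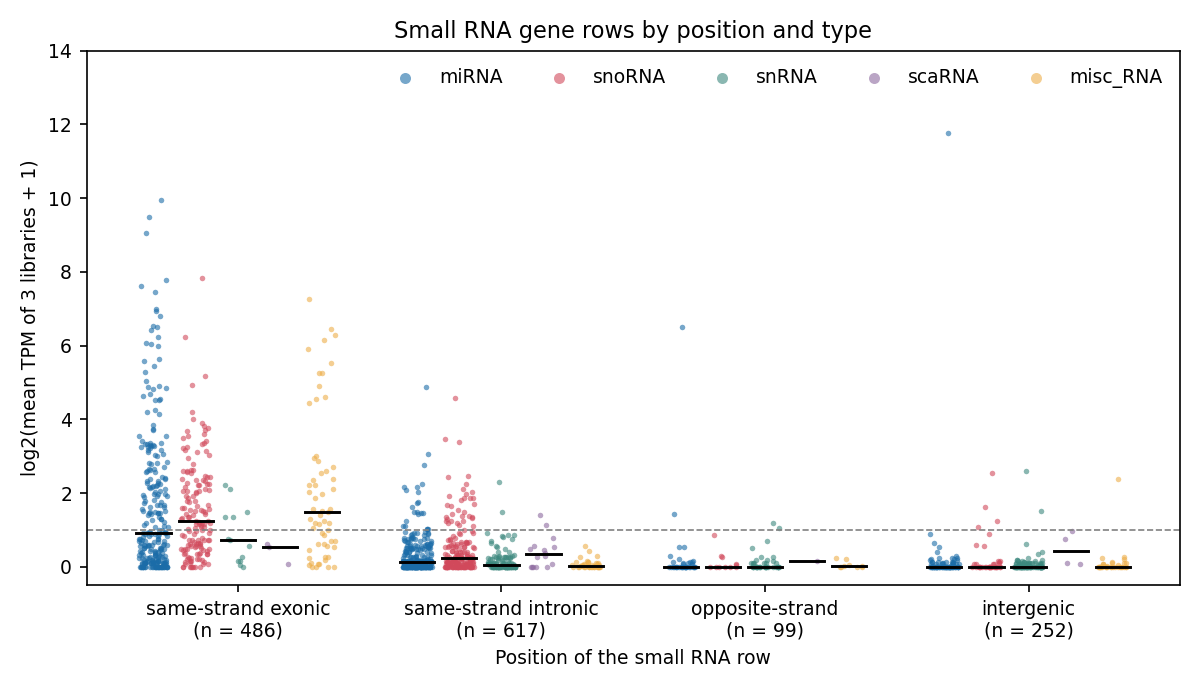
Each point is a small RNA row at log2(mean TPM of 3 libraries + 1), placed by position and coloured by type, with a black bar at the median of each type and a dashed line at the level of 1 TPM. The 486 exonic rows spread upward to 987 TPM, while the medians of the opposite-strand and intergenic miRNA, snoRNA and snRNA rows sit at 0 and a single intergenic miRNA row, Mir6236, lies at 3499 TPM.

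Counted library by library, 29.4%, 28.1% and 29.5% of the 1103 host rows were at 1 TPM or more, against 3.17%, 3.57% and 3.57% of the intergenic rows. The difference was 25.5 ± 0.887 percentage points (SD, n = 3), above 0 in 3 of 3 libraries, and the values of the groups did not overlap (exact two-sided sign-flip permutation test, p = 0.25). This p is the smallest that 3 libraries allow, so no comparison here could reach 0.05. On the log2(TPM + 1) scale, which understates ratios of low rows, the means differed by 0.76 ± 0.02. Exonic rows exceeded intronic rows by 41.3 ± 0.560 percentage points, with 52.7%, 50.8% and 52.7% against 11%, 10.2% and 11.2% (exact permutation p = 0.25), and by 1.32 ± 0.02 on the log2 scale. Intronic rows exceeded opposite-strand rows by 7.44 ± 1.5 percentage points, the latter at 2.02%, 3.03% and 5.05% (exact permutation p = 0.25). That difference was 0.17 ± 0.03 on the log2 scale and was also above 0 in each library. At a limit of 5 TPM it was 0.178 ± 0.248 percentage points (exact permutation p = 0.5). For intronic rows at least 200 bases from an exon it was 2.46 percentage points and 0.04 on the log2 scale.

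The level of the host's longest transcript went with the level of the row. The host value is the TPM of the longest transcript row of the host gene. It need not be the level of the gene, because other transcript rows can differ. The longest Gas5 and Rps20 rows had means of 32.2 and 9.09 TPM, and another row of each 73.9 and 28.7 TPM. In Mcm7 the longest row had 3.58 TPM and another row 2.10 TPM. The host levels and correlations below therefore sort rows by that single transcript. Where the host stood under 1 TPM, 17 of 93 exonic rows were detected; at 1 to 10 TPM it was 89 of 175, at 10 to 100 TPM 115 of 165, and at 100 TPM or more 16 of 20. For intronic rows the counts were 2 of 75, 14 of 248, 36 of 256 and 5 of 22. Across 453 exonic rows of 339 hosts, Pearson's r between log2 levels of row and host was 0.515 and Spearman's rho 0.500. Across 601 intronic rows of 528 hosts they were 0.308 and 0.306, and across 91 opposite-strand rows -0.008 and -0.183. These are descriptions across rows of the same libraries; rows of a host share its reads, and rows are not replicates. Where the host reached 10 TPM, the median exonic row stood at 12.4% of its host (185 rows) and the median intronic row at 0.690% (278 rows).

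**Figure D2:**
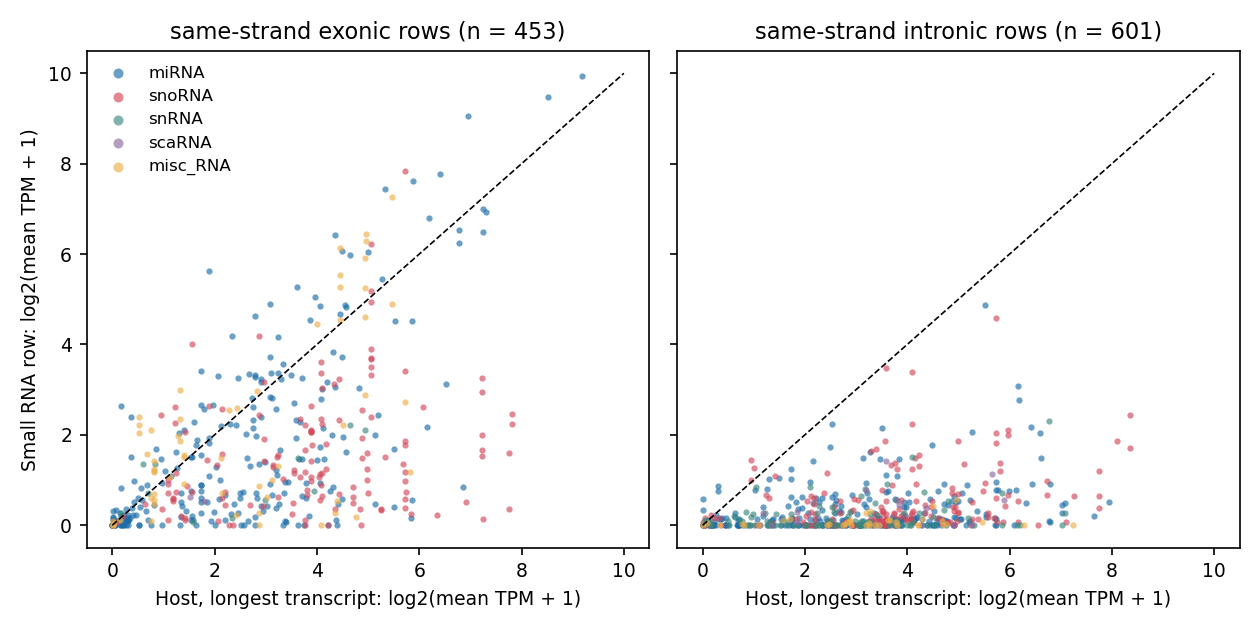
Each point is a small RNA row, with the log2(mean TPM + 1) of the host's longest transcript on the horizontal axis and of the row on the vertical axis, for exonic rows on the left and intronic rows on the right. The dashed line marks equal levels: 121 of 453 exonic rows and 13 of 601 intronic rows lie above it.

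Exonic rows also differed by the kind of exon they lay in. Of 68 rows that overlapped coding sequence, 53 were detected, with a median of 5.08 TPM. Of 28 rows on coding and untranslated bases 19 were detected, of 89 on untranslated bases 48, and of 301 on exons of non-coding transcripts 132, with a median of 0.697 TPM. Where a row lay wholly inside an exon of a longer row of at least 10 TPM, the levels of the pair could be compared directly. Over 105 such rows the median ratio of the small RNA row to the longer row was 0.197, 0.155 and 0.180 in libraries 1, 2 and 3, and 24 rows stood above the longer row. The median was 0.472 ± 0.156 for 17 rows in exons with coding bases, 0.588 ± 0.0819 for 35 rows of non-coding hosts, 0.138 ± 0.0246 for 28 rows in untranslated exons, and 0.0409 ± 0.00818 for 25 rows in non-coding transcripts of protein-coding hosts (SD over 3 libraries). Of the last group none stood above the longer row, against 14 of the 35 in non-coding hosts. The ratio also moved with length, from 0.191 in 23 rows of under 70 bases to 0.0656 in 20 rows of 120 bases or more; how the counting treats a read that overlaps a short row in part is not given in the sources used here, and its part in these ratios was not tested.

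The highest exonic rows, Gm26377, Mir5114 and Gm22133, were miRNA genes placed inside exons of protein-coding genes. The next, Gm24895 with a mean of 228 TPM, was a snoRNA row of the non-coding Rian. Of 11 exonic rows at 100 TPM or more, 3 lay on exons of non-coding transcripts. Gm26377, in an untranslated exon stretch of the translation elongation factor gene Eef1a1, stood at 1066, 964 and 929 TPM, but only 17.7% of its 30-base words occurred at no other annotated place. Mir5114, on coding and untranslated bases of the fatty acid desaturase gene Scd2, stood at 829, 746 and 572 TPM with all words unique, and Scd2 itself at 383, 391 and 324 TPM. Library 3 was the lowest for both rows and for Scd2. Gm22133, in the ferritin light chain gene Ftl1, stood at 645, 497 and 442 TPM with 55.0% of words unique.

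Mir6418 shared 30 of its 115 bases with a coding exon of Gnb2, a G protein beta subunit, and stood at 232, 220 and 202 TPM. Mir3082, which overlaps coding sequence of the ubiquitin ligase gene Stub1, stood at 150, 159 and 214 TPM, against a host mean of 39.2 TPM. Gm25749, in coding sequence of the AMPA receptor subunit gene Gria2, stood at 102, 103 and 127 TPM, close to 1 times the longer row that contains it (ratio 1.03). In Psmb5, a proteasome subunit gene, Mir686 was 4.35 times the containing row. In Pink1, a mitochondrial kinase gene, Gm27646 was 0.0500 times its containing row, so rows in coding exons of well expressed genes ranged from far below to above the message they lie in.

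Among intronic rows, the share detected differed with distance from the nearest exon, and the types lay at different distances. The 115 rows within 1 to 5 bases of an exon were all miRNA rows, with a median length of 65 bases. Of these 9 were detected (7.83%), near the 22 of 272 (8.09%) of all intronic miRNA rows. Of 69 snoRNA rows at 51 to 200 bases from an exon 22 were detected (31.9%). At 6 to 50 bases the share was alike, 5 of 16 (31.3%), whereas of 52 snoRNA rows more than 1000 bases away 2 were detected. Over all types the counts were 9 of 115 at 1 to 5 bases, 8 of 29 at 6 to 50, 27 of 101 at 51 to 200, 12 of 151 from there to 1000 and 4 of 221 beyond. With hosts of at least 10 TPM the counts were 3 of 54, 4 of 11, 20 of 64, 10 of 69 and 4 of 80, in the same order of distance.

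**Figure D3:**
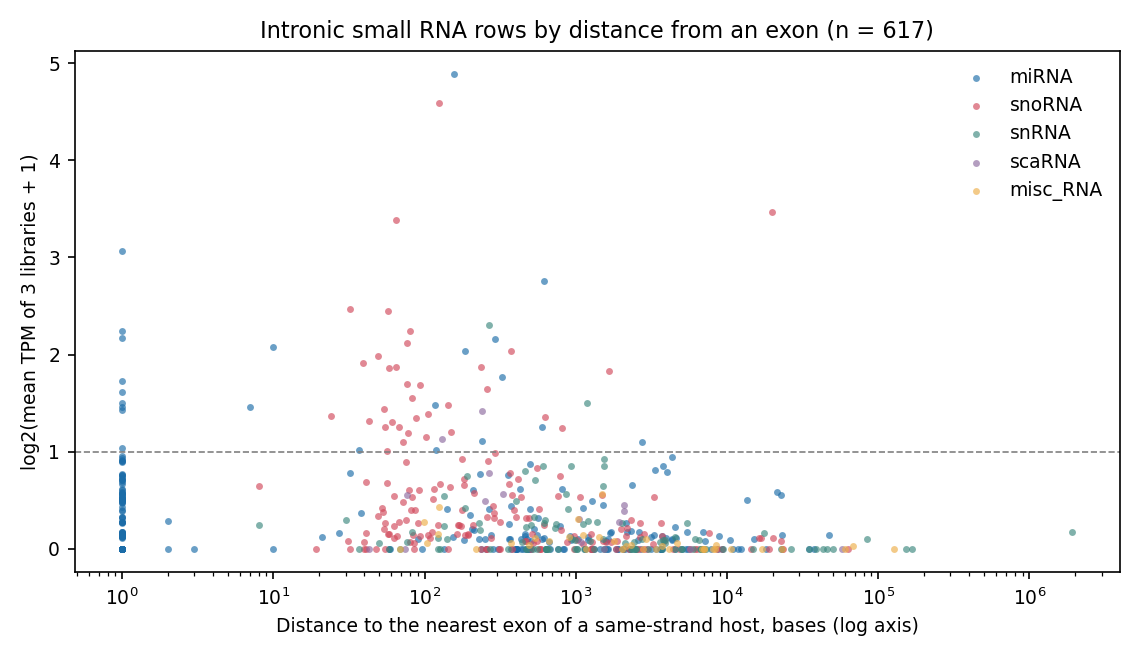
Each point is an intronic small RNA row, with its distance to the nearest same-strand host exon in bases on a log axis and its log2(mean TPM + 1) on the vertical axis, and the dashed line marks 1 TPM. The miRNA rows pile up at a distance of 1 base, and 4 of 221 rows beyond 1000 bases lie at or above the line. Between 51 and 200 bases lie 22 of the 34 detected snoRNA rows, and 69 of all 185 intronic snoRNA rows.

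The intronic rows with the highest levels were few. Mir5125, 156 bases from an exon of Srrm2, a spliceosome-associated protein gene, stood at 30.1, 26.6 and 28.8 TPM against 45.1 TPM for its host. Gm23600, a snoRNA row in Rian 124 bases from an exon, stood at 27.8, 23.1 and 18.5 TPM. Gm24966, a snoRNA row in Snhg14, stood at 9.14, 11.4 and 9.70 TPM although it lay 19924 bases from the nearest annotated exon. The other rows of the first 10 had means from 3.74 to 9.43 TPM. They included Gm23301 and Gm26202 in the ribosomal protein gene Rpl17, Mir7000 in the JNK scaffold gene Mapk8ip1 and Mir186 in Zranb2. The rest were Snord32a in Rpl13a, Snord59a in the ATP synthase gene Atp5b and Gm23205 in Rnf14. Atp5b stood at 325 TPM and its intronic row Snord59a at 3.69, 3.75 and 5.92 TPM, or 1.37% of the host.

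Rows that fill an intron, with a small tolerance at each end, numbered 18, all of them miRNA rows. This is the class known as mirtrons, whose hairpin ends are made by splicing. The 10 that overlapped no exon all start with GT and end with AG, as printed for Mir7070 and Mir877. These are the letters of intron ends and go with that choice of rows. Of the 18 rows 4 were detected. Among them, 3 also overlapped an exon of another transcript: Mir6958 in Dennd6b stood at 5.61, 6.34 and 6.60 TPM, Mir1982 in Oaz1 at 3.43, 2.19 and 3.55 TPM and Mir7068 in Cherp at 2.11, 1.25 and 0.592 TPM. Of the 10 that overlapped no exon 1 was detected, a share near the 9.72% of all intronic rows. That row, Mir7070, stood at 1.59, 1.88 and 1.78 TPM, with its host Fbxw9 at 10.0 TPM. Mir877 stood at 0.918, 0 and 0.258 TPM and its host Abcf1, a translation factor gene, at 25.2 TPM. Mir6944 stood at 0.203, 0.723 and 1.14 TPM in the actin-binding protein gene Dbn1, a host at 62.6 TPM. A low mean with 0 to 5 reads in a library, as for Mir877 and Mir6944, does not separate these rows from one another.

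Types were compared next. Of the miRNA rows 147 were detected (22.6%), of the snoRNA rows 126 (32.7%), of the misc_RNA rows 38 (27.1%), of the scaRNA rows 2 (8.33%) and of the snRNA rows 11 (4.33%). Library by library, snoRNA rows were at 1 TPM or more in 33.5%, 30.6% and 30.9%, and miRNA rows in 23.7%, 23% and 24.9%, so the values did not overlap and the difference was 7.83 ± 1.92 percentage points (exact permutation p = 0.25). At a limit of 5 TPM it turned to -2.33 percentage points. The mean log2 levels differed by 0.02 ± 0.02, above 0 in 2 of 3 libraries (exact permutation p = 0.5), and among exonic rows alone by -0.15. The snRNA rows lay below the miRNA rows by 18.6 percentage points (difference -18.6 ± 0.596), with 4.72%, 5.12% and 5.91% (exact permutation p = 0.25). Among intergenic rows alone this difference was 0.0477 percentage points. Only 13 of 254 snRNA rows were exonic, and 119 of 254 had at least 90% unique words, against 260 of 651 and 555 of 651 miRNA rows. The misc_RNA rows exceeded the miRNA rows by 3.76 ± 0.313 percentage points (exact permutation p = 0.25) and by 0.07 ± 0.01 on the log2 scale. Their median lengths were 208.5 and 82 bases, and among rows of 60 to 150 bases the differences were 21.8 percentage points and 0.79 on the log2 scale. That order held among exonic rows, where 37 of 59 misc_RNA rows were detected, and turned among intronic rows, where 0 of 38 were and the differences were -9.80 percentage points and -0.25 on the log2 scale; at a limit of 0.5 TPM it was -0.968 percentage points, and among intergenic rows -0.10 on the log2 scale. The 24 scaRNA rows lay 14.1 points below the miRNA rows (difference -14.1 ± 4.72 percentage points, exact permutation p = 0.25), and 16 of them were intronic.

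The neuronal miRNAs were looked at by name. Of 36 listed symbols 25 had a row, and 6 of the 25 were detected (24%), a share near that of all small RNA rows. Mir9-2, one of the genes for miR-9, a regulator of neural progenitors, stood at 37.9, 46.0 and 43.8 TPM and lay wholly in an exon of the long non-coding RNA C130071C03Rik, itself at 36.9, 36.9 and 38.5 TPM. Mir9-3 encodes the same mature strands, printed above, and lay 5014 bases from an exon in Mir9-3hg, which stood at 10.9 TPM; the row was listed at 0 in all 3 libraries. The level of a row thus differed between genes with the same product.

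Mir124a-1, one of the genes for the neuron-enriched miR-124, stood at 2.52, 1.63 and 2.83 TPM in an exon of Mir124a-1hg, a host at 15.7 TPM. Also in an exon of that host, Mir3078 stood at 31.6, 21.5 and 30.2 TPM, above Mir124a-1 in each library. Mir124a-3 was listed at 0. Mir22 stood at 6.57, 5.11 and 3.92 TPM. Mir29c stood at 5.54, 2.37 and 4.98 TPM, and its neighbour in the same host, Mir29b-2, at 0.465, 1.38 and 3.65 TPM, so the order of the pair held in each library but the ranges overlapped. Mir149, in an intron of the glypican gene Gpc1, was the last detected row of the list, at 2.07, 0.350 and 0.995 TPM. Mir132 and Mir212, known as activity-regulated in neurons, had means of 0.144 and 0.325 TPM and at most 3 reads in a library. Mir137, Mir103-2, Mir153, Mir218-1, Mir26a-2 and Mir7b were listed at 0 in all libraries.

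In the let-7 and miR-125/99 list, 10 of 18 symbols had a row and 1 was detected, Mirlet7b at 0.689, 1.63 and 1.29 TPM. Its neighbour Mirlet7c-2, in the same host Lncppara, stood at 1.03, 0.974 and 0.691 TPM, so the values of the neighbours overlapped. Of 11 rows of the miR-17-92 cluster and its paralogs, known for proliferating progenitors, 0 were detected, the highest being Mir25 in Mcm7 at 0.465, 0 and 1.30 TPM. The host Mir17hg stood at 0.237 ± 0.0412 TPM and its 6 rows had at most 2 reads in a library. Of 3 rows of glial, blood and muscle miRNAs 0 were detected, with Mir21a at 0.388 TPM in the untranslated exon of Vmp1, a host at 34.0 TPM.

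The snoRNA rows were split by letters. A row was counted as C/D where TGATGA lay in its first 25 bases and CTGA in its last 25, on the strand of the row, and as ACA where ACA stood 3 bases before its end. Of 383 snoRNA rows with a sequence, 115 held the C/D letters (30.0%), 114 the ACA letters and 154 neither; of the 618 miRNA rows with a sequence 0 held the C/D letters and 8 the ACA letters (1.29%). Of the C/D rows 55 were detected (47.8%), of the ACA rows 23 (20.2%) and of the rest 47 (30.5%). Within introns the counts were 16 of 49 for C/D rows, at a median of 83 bases from an exon, and 5 of 69 for ACA rows, at a median of 393 bases. Within exons they were 38 of 62 and 18 of 35. The 2 classes also differed in other ways. Median lengths were 76 bases for all C/D rows and 133 for all ACA rows, so 1 TPM takes more reads on a typical ACA row. At least 90% of words were unique in 107 of 115 C/D rows and 62 of 114 ACA rows. The shares listed at 0 in all libraries were closer, 13.0% and 18.4%. The part of length and shared words was not tested. Rows with neither set of letters are mixed and include Snord78, at 73.7 TPM. A match of letters describes the row and is not a test of function.

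Several snoRNA host genes have rows that can be read side by side. Gas5, a spliced RNA with little coding capacity, carried 9 snoRNA rows, each within an exon of some Gas5 transcript, and all 9 were detected, from a mean of 4.26 TPM for Gm25789 to 73.7 TPM for Snord78. Snord78 stood at 74.5, 61.7 and 84.9 TPM, Gm22357 at 27.0, 27.6 and 51.2 TPM and Gm25789 at 5.65, 4.26 and 2.88 TPM, while the longest Gas5 row stood at 29.9, 27.9 and 38.9 TPM. The lowest value of Snord78 lay above the highest of every other small RNA row of Gas5. This does not extend to the transcript rows of Gas5, of which the one that contains Snord80 had a mean of 73.9 TPM. Snhg1 carried 8 rows, all 8 detected, from 3.09 TPM for Gm23246 to 13.0 TPM for Snord22. Of 4 rows in Snhg12 3 were detected, led by Snora61 at 5.70, 6.94 and 8.92 TPM.

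In ribosomal protein genes, pseudogenes left out, 36 of 62 rows were detected, 23 of 33 exonic rows and 13 intronic ones. Snora65 in Rpl12 stood at 11.4, 12.5 and 21.4 TPM, with only 26.7% of its words unique. Snord21 in Rpl5 stood at 4.98, 7.14 and 11.2 TPM, with all words unique. Library 3 was the highest for both. Snhg14, the long host that runs across the imprinted Snrpn and Ube3a region, carried 14 intronic rows and 1 was detected, Gm24966; the next highest, Gm26498, had a mean of 0.457 TPM, and 6 were listed at 0. Snhg14 itself stood at 10.9, 13.2 and 8.91 TPM.

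**Figure D4:**
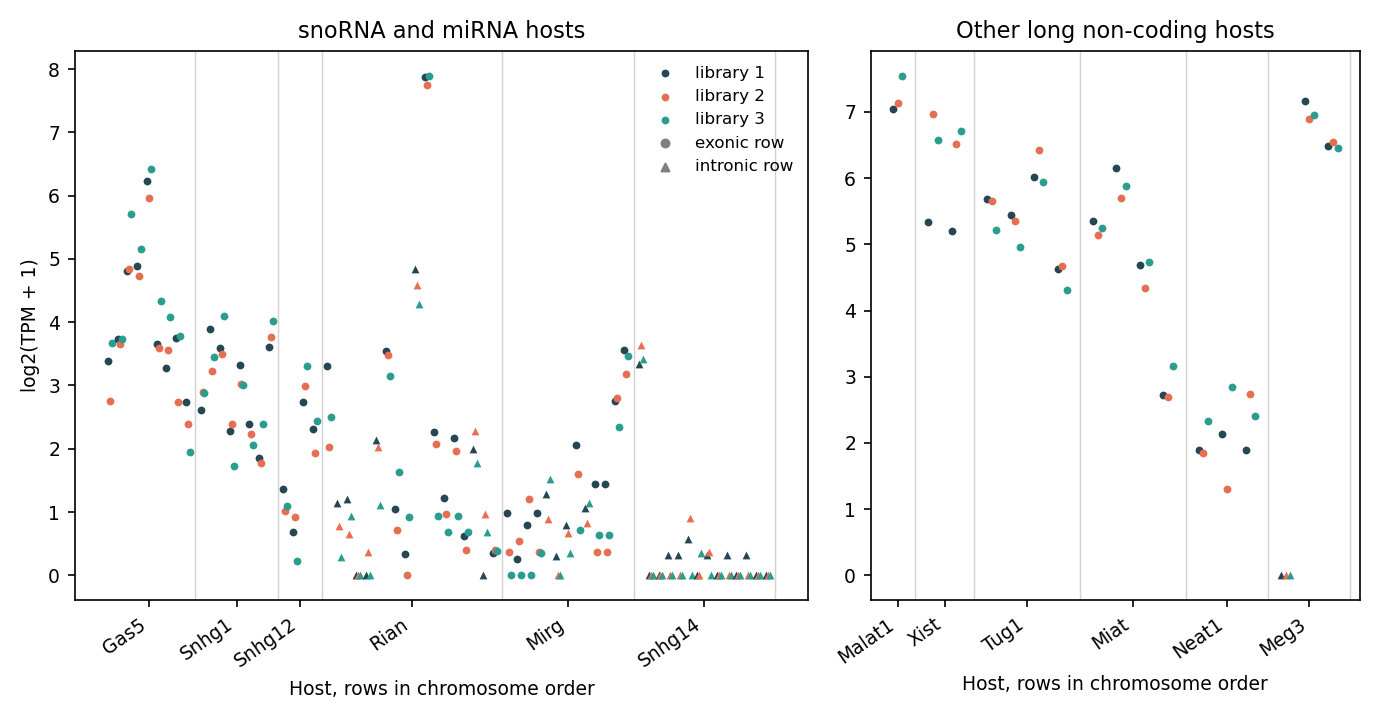
Each column of points is a small RNA row in chromosome order within its host, with log2(TPM + 1) of libraries 1 to 3 in 3 colours, circles for exonic rows and triangles for intronic rows. All 9 Gas5 and 8 Snhg1 rows lie above 1 TPM in the mean, 1 of the 14 Snhg14 rows stands out, and library 1 is the lowest of the 3 for both Xist rows.

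The rows on long non-coding RNAs of other kinds were misc_RNA genes, stretches of the host that the annotation names as separate genes. Gm27694 of Malat1, a nuclear RNA of speckles, stood at 131, 139 and 186 TPM, against 40.8, 39.5 and 48.6 TPM for the longest Malat1 row. All 4 rows of Tug1 were detected, with Gm27937 at 63.6, 85.2 and 60.4 TPM, and all 4 of Miat, with Gm27882 at 70.4, 51 and 57.7 TPM. The 3 rows of Neat1, the scaffold of paraspeckles, were detected at means of 3.10, 3.67 and 4.24 TPM, while the longest Neat1 row stood at 0.445 TPM. The 2 rows of Xist, the RNA of X inactivation, were low in library 1: Gm27733 stood at 39.3, 125 and 94.3 TPM and Gm27927 at 35.6, 90.7 and 104 TPM. The longest Xist row had the same order for library 1, at 15, 40.5 and 34.4 TPM.

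The stretch of chromosome 12 from Meg3 to Mirg, 208 kb of imprinted, maternally expressed non-coding RNA, held 60 of the rows. Of these 17 were detected (28.3%), against 22.3% of all small RNA rows. By position they were 11 of 21 exonic, 5 of 13 intronic, 1 of 5 opposite-strand and 0 of 21 intergenic rows. The exonic share, 52.4%, was near the 51.9% of all exonic rows. The intronic share was 38.5% against 9.72% of all intronic rows, and rests on few rows. In Meg3, Mir770 stood at 88.6, 92.3 and 87.1 TPM and Mir1906-1 at 142, 117 and 123 TPM, the latter with no word unique to it, against 136, 144 and 173 TPM for the longest Meg3 row. In Rian 9 of 18 rows were detected. Gm24895 stood at 234, 213 and 237 TPM, or 888, 682 and 802 reads, while the longest Rian row stood at 52.3, 54.2 and 49.5 TPM. The Rian row that contains Gm24895 had a mean of 89.3 TPM, and Gm24895 was 2.56 times that row. The copy on chromosome X, Gm24598, was listed at 0 in all libraries, where 3 reads would have given 0.791, 0.938 and 0.887 TPM. The pair thus lay at opposite ends of the range although 2 of their 74 bases differ, and 53.3% of the words of Gm24895 are unique to it among annotated transcripts.

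Also in Rian, Gm23474 stood at 10.7, 10.2 and 7.88 TPM, and Gm23912 at 0. In Mirg, a host of miRNA genes at 2.33 TPM, 5 of 13 rows were detected, with Mir3072 at 10.8, 8.08 and 10.0 TPM and Mir410 at 5.78, 6.0 and 4.05 TPM. Mir134 and Mir485, studied for dendritic spines and synapses, stood at 0.215 and 0.519 TPM in the same host. Mir433, on the strand opposite to Rtl1, was the detected opposite-strand row of the stretch, at 2.83, 0.746 and 1.59 TPM, while Rtl1 stood at 0.00574 TPM.

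The spliceosomal and polymerase III genes were mostly at or near 0. Of 14 listed snRNA symbols 9 had a row and 1 was detected: Rnu7, which takes part in histone message processing, at 4.41, 3.73 and 2.82 TPM, inside an untranslated exon of Grcc10 at 24.2 TPM. Rnu1a1, Rnu2-10 and Rnu6, of the spliceosome, had means of 0.0867, 0.0340 and 0.0608 TPM, with 0% of words unique in each. Of 6 rows in the polymerase III and other misc_RNA list 1 was detected, Rn7sk, the inhibitor of the elongation factor P-TEFb, at 4.66, 3.91 and 4.17 TPM with 26.5% of words unique. Terc, the telomerase RNA, Rn7s2 of the signal recognition particle and Vaultrc5, a vault RNA, were listed at 0, and Rny1 and Rny3 had 1 read each in 1 library. Of 9 listed scaRNAs 0 were detected, the highest being Scarna17 at 0, 1.76 and 0.277 TPM. The scaRNA rows that were detected, Gm22009 in Kpna4 and Gm22442 in Chd3, were intronic, with means of 1.67 and 1.19 TPM.

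Outside host genes a single row held most of the signal. Mir6236, intergenic on chromosome 9, stood at 3356, 3005 and 4136 TPM, or 32.9%, 31.5% and 39.1% of the summed TPM of all small RNA rows, and all its words are unique among annotated transcripts; the unannotated genome was not searched here. Without it, exonic rows held 93.5% ± 1.28 and intronic rows 4.41% ± 0.164 of the remaining sum (SD, n = 3). The next intergenic rows were Gm25047 at 3.19, 6.01 and 5.89 TPM, Snord104 at 5.85, 3.63 and 5.00 TPM and Rn7sk. On the opposite strand of a gene, Gm23935 stood at 39.0, 58.8 and 172 TPM within Zc3h7a, with no unique word, and the next highest was Mir433. The difference between host and intergenic rows was 25.9 percentage points without Mir6236, and that between intronic and opposite-strand rows 8.42 without Gm23935.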

How the data were processed

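RNA-seq libraries of 3 samples of 1 group were used. The deposited table holds TPM, a length-scaled value for each transcript row in each library as made by the authors, per the file headers. Per the submitters' processing notes, the tools were Trimmomatic, TopHat, Bowtie and HTSeq and the build mm10, without roles. Not given in the sources used here were the strandedness of the counting, the handling of multi-mapping reads and the choice of rows. Of 84660 rows, 83017 were matched by transcript identifier to GENCODE release M21, on the same build, which gave gene names and types; 1643 rows without a match were not typed. Of the 1454 small RNA rows, 1419 had the same first and last base in M21, and the deposited coordinates were kept.

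TPM multiplied by row length fell on whole steps (tolerance 0.01) in all small RNA rows but 1 and in 99.8% of the 74441 rows of the table with equal span in M21, and a step was taken as 1 read, and the fullest row of each gene summed to at least 26.7, 23.6 and 23.2 M reads. Between library pairs the chi-square per degree of freedom over small RNA rows was 4.53, 9.83 and 7.94, with no identical row above 0, so all 3 libraries were kept. Reads gave the depth, 2 alternative limits of detection and the counting noise of rows. A host is an overlapping M21 gene of any type other than the 5 small RNA types, rRNA and TEC, and exons are those of any M21 transcript of it. Differences between sets of rows were computed per library, and an exact two-sided permutation test flipped their signs across the 3 libraries. Unique words are 30-base words found at no other annotated locus. Python 3.11.15, pandas 2.3.3, numpy 2.4.6 and SciPy 1.17.1 were used. The code for read recovery was run on simulated data (100% of 1454 rows). Those data were built from whole reads and a fixed step, so they cannot show that a step in the deposited values is 1 read.

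The members, lists and comparisons were chosen with earlier results of these data known. Named rows are the 5 highest of each type, the 10 highest intergenic, intronic and opposite-strand rows, and the listed symbols. The printed pair with Gm24598, and rows named by host, by exon, by filled intron, by limit or by spread outside that rule, were chosen after their values were seen. Alternatives were leaving out each library, other limits and pseudocounts, recovered reads, unique or mid-length rows, single types, host and distance restrictions and, added after seeing the data, other exon definitions, single positions and leaving out Mir6236 or Gm23935.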

Additional observations from a re-analysis of the deposited data

How the results depend on the processing

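The differences between positions and types were recomputed under 146 alternatives, and in 139 the direction was kept. The 7 that turned all concerned types. For snoRNA against miRNA rows the difference was -2.33 percentage points at a limit of 5 TPM and -0.15 on the log2 scale in exonic rows. For snRNA against miRNA rows it was 0.0477 percentage points in intergenic rows. For misc_RNA against miRNA rows it was -0.968 percentage points at 0.5 TPM, -9.80 percentage points and -0.25 on the log2 scale in intronic rows, and -0.10 on the log2 scale in intergenic rows. The comparisons by position kept their direction in each alternative, but not their size. At a limit of 5 TPM host rows exceeded intergenic rows by 10.0 percentage points, exonic exceeded intronic rows by 22.2, and intronic exceeded opposite-strand rows by 0.178 ± 0.248. Intronic rows at least 200 bases from an exon exceeded opposite-strand rows by 2.46 percentage points and 0.04 on the log2 scale, and intronic rows exceeded intergenic rows by 7.37 percentage points. For misc_RNA against miRNA rows of 60 to 150 bases the differences were 21.8 percentage points and 0.79 on the log2 scale. The count of detected rows was 324, and 120 at a limit of 5 TPM, 517 with at least 1 read in every library and 168 with at least 10. Leaving out each library gave 328 to 332 detected rows, 25.2 to 26.0 percentage points for host against intergenic rows, 6.66 to 8.09 for intronic against opposite-strand and 41.1 to 41.6 for exonic against intronic. The cause of these shifts was not tested.

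No paired analysis was possible because the series has 1 group. Depth limits single rows: at 0.244 to 0.289 TPM for 1 read on 80 bases, rows near 1 TPM rest on few reads. Intervals were not computed for single rows, and the values cover poly-A RNA only, so they give no level of the mature small RNAs.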

Other observations

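The spread between libraries exceeded counting noise. Over 216 rows with at least 30 reads in all, comparing libraries in pairs gave chi-square values of 4.53, 9.83 and 7.94 per degree of freedom. Rows with many reads can weigh most in these averages. Over the 168 rows with at least 10 reads in each library, the median coefficient of variation was 19.3%, against 16.7% for Poisson counting. The former rests on the SD of 3 libraries and the latter on mean reads, so they compare only roughly. In 18 rows the highest value was at least 2 times the lowest. The widest was the opposite-strand row Gm23935, whose highest library was 4.4 times its lowest while the gene around it, Zc3h7a, stood at 6.99, 7.22 and 7.94 TPM. Gm23419, in the cytoplasmic actin gene Actg1, stood at 66.9, 54.0 and 25.3 TPM and has no unique word. Gm27597, in coding sequence of the ribosomal protein gene Rpl19, stood at 28.8, 11.6 and 25.4 TPM with no unique word, and Gm27684, in the processed pseudogene Rpl19-ps10, at 6.10, 47.7 and 0 TPM. Gm27597 was lowest in library 2, in which Gm27684 was highest and the longest Rpl19 row, at 56.1, 38.8 and 76 TPM, was lowest too. Mir7578, which overlaps coding sequence of the bromodomain gene Brd3, stood at 14, 22.8 and 30.2 TPM with all words unique. The longest Brd3 row stood at 12.8, 14.1 and 13.7 TPM.

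Rows of a host differed in level. Of 113 same-strand hosts with at least 2 small RNA rows, 60 had a row of at least 1 TPM, and in 19 of these the highest row was at least 10 times the lowest. Among miRNA rows with a shared seed, the 6 rows with the let-7 seed GAGGUAG included 1 detected row, and both rows with the seed AGCACCA, Mir29b-2 and Mir29c, were detected.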
